A study of Homo sapiens with 2 samples.

Results

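Receptor tyrosine kinases outside the EGF and vascular receptor families were examined in 2 stable derivatives of MDA-MB-231, an established human triple-negative breast cancer cell line. The receptors were taken from a list of 10 genes (MET, AXL, TYRO3, EPHA2, EPHB2, EPHB4, FGFR1, FGFR4, IGF1R and INSR), using every probe set annotated to exactly 1 of these symbols. This gave 32 of the 54675 probe sets on each Affymetrix array and 9 of the 19775 genes. EPHB2 had 0 probe sets annotated to it alone, so it has no expression value here and enters only the promoter counts. The control line (MB231/EV) was infected with a control virus and carried an empty vector, and the other line (MB231/miR-203) was infected with a virus that overexpressed the microRNA miR-203. Both lines were kept in DMEM with serum, and each gave 1 array of total RNA. The labels do not say whether a line was 1 clone or a pool, nor what drove miR-203. All levels are RMA signals on the log2 scale, and all differences are miR-203 minus empty vector on that scale. With 1 array per line there was no spread between replicates to test against, and no p-value is given: culture, RNA preparation and hybridisation cannot be told apart from miR-203.

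Receptor tyrosine kinases span the cell membrane with a ligand-binding part outside and a kinase inside. Ligand binding brings receptors together, the kinases phosphorylate each other on tyrosines, and adaptor proteins dock there and pass the signal to the RAS-MAPK and PI3K-AKT cascades. MET binds hepatocyte growth factor, AXL and TYRO3 (of the TAM family) bind GAS6 and protein S, the Eph receptors bind ephrins on neighbouring cells, FGFR1 and FGFR4 bind fibroblast growth factors, and IGF1R and INSR bind insulin-like growth factors and insulin. AXL, MET and EPHA2 are well known for their part in the migration and invasion of breast cancer cells of the mesenchymal type. A microRNA lowers target mRNAs by pairing of its seed, bases 2 to 8, with the mRNA.

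The mature arms of miR-203a, the agent that separates the lines, are shown first, 5′ to 3′ with the seed in capitals, from RefSeq (GRCh38.p14). The 3p arm lies at chr14:104117469-104117490 and the 5p arm at chr14:104117431-104117455, both on the plus strand. The labels do not say which arm the virus was designed to deliver.
hsa-miR-203a-3p: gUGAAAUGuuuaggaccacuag
hsa-miR-203a-5p: aGUGGUUCuuaacaguucaacaguu
An mRNA site that pairs with the 3p seed reads CAUUUCA, and one for the 5p seed reads GAACCAC. The receptor mRNAs were not searched for these sites here.

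AXL, the TAM receptor for GAS6, gave the highest signal of the 9 receptors and was nearly equal in the 2 lines. INSR, the insulin receptor, had the largest difference by the brightest probe set and was 1.54-fold lower in the miR-203 line. With the median level over each gene's probe sets INSR was at -0.21, and TYRO3 at -0.46 and IGF1R at -0.27 differed more. TYRO3, the other TAM receptor on the list, was 1.30-fold lower, and the remaining 7 receptors differed by less than 0.2 in size. No receptor reached 2-fold (0 higher, 0 lower), where 0.105% of the 13304 genes above the level filter were 2-fold higher and 0.271% 2-fold lower. At 1.5-fold, 1 receptor (INSR) was lower and 0 were higher, against 1.08% of all genes lower and 0.722% higher. The 9 receptors had a median difference of -0.048, with 6 below 0 and 3 above, and all genes had a median of 0.013, with 45.9% below 0. The level filter asked that the higher of a gene's 2 values reach 5.38, the median of all values on both arrays, and 9 of the 9 receptors passed it by their brightest probe set.

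The arrays correlated with r = 0.996 over all probe sets, and 96.9% of the genes above the filter differed by less than 0.5. The differences of all these genes had an SD of 0.22, with quartiles at -0.11 and 0.15. All 7 markers chosen for mesenchymal breast cancer cells passed the filter, with vimentin (VIM) at 13.90 and 13.89 in the empty-vector and miR-203 lines, 5 below 0 and differences from -0.46 for SNAI2 to 0.16 for CAV1. Of 10 luminal markers 8 passed, among them KRT18 at 12.03 and 11.85 and EPCAM at 8.35 and 8.25. GATA3 at 7.89 and 7.76, FOXA1 at 6.53 and 6.27 and the oestrogen receptor (ESR1) at 6.27 and 6.30 also passed. E-cadherin (CDH1) lay under the filter level at 4.15 and 3.99, as did the progesterone receptor (PGR) at 3.67 in both. The log2 values of the luminal list summed to 75.1 and 73.4 in the empty-vector and miR-203 lines, genes under the filter included, and the differences of those passing ran from -1.07 for KRT19 to 0.37 for ERBB3. Of 7 annotated blood and endothelial markers 4 passed, with the list's sum at 37.3 and 36.8 and all 4 below 0. PTPRC, CD14 and CDH5 were below the filter in both lines. Those passing were PECAM1 at 7.06 and 6.95, HBB at 6.30 and 6.22, CD3E at 5.91 and 5.82, and KDR. KDR went from 5.51 to 4.76, the latter under that level. Of 7 fibroblast markers 4 passed, with the sum at 39.7 and 39.1 and differences from -0.84 for THY1 to 0.35 for PDGFRB. The part of these shifts in the receptor values was not tested.

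**Figure D1:**
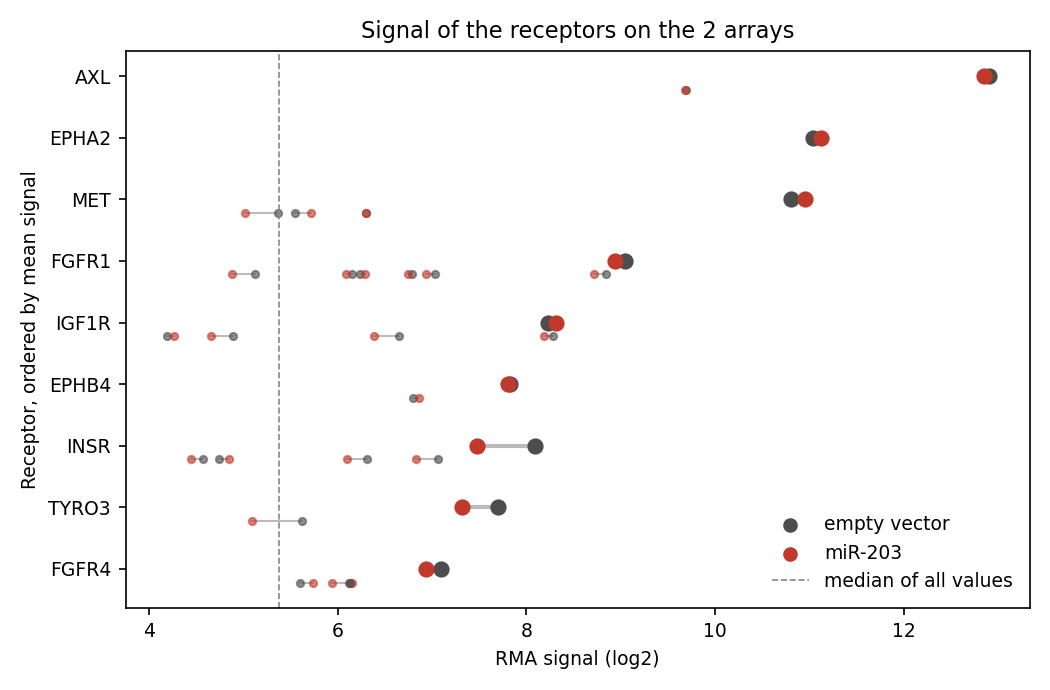
RMA signal (log2, x axis) of the 9 receptors (y axis, ordered by mean signal) in the empty-vector line (grey) and the miR-203 line (red). Large points joined by a line are the brightest probe set of a gene and small points its other probe sets; AXL lies at 12.90 and 12.85, and the widest separation of large points is that of INSR, at 8.09 and 7.47.

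The plot of signals by receptor shows the order of the levels. By the mean of both arrays this was AXL, EPHA2, MET, FGFR1, IGF1R, EPHB4, INSR, TYRO3 and FGFR4. Probe sets bind their targets with different strength, so this is an order of signal and not of mRNA amount. For 7 of the 8 pairs of neighbours the ranges of their probe sets overlapped, so these pairs are not ordered. The pair that did not overlap was EPHA2 and MET, with brightest probe sets 0.21 apart. EPHA2 has 1 probe set and thus no range, so the order of this pair is not secure either. The means of EPHB4 and INSR were 0.031 apart and changed places between the lines, with INSR 6th in the empty-vector line and 7th in the miR-203 line, and the other receptors held their rank on both arrays. Among all genes above the filter, the mean level of AXL lay at the 98.9th percentile, EPHA2 at the 92.1st, MET at the 90.6th and FGFR4, the lowest, at the 33.5th.

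AXL and MET, receptors linked to invasion, were high and close to equal in the 2 lines. AXL was at 12.90 in control cells and 12.85 in miR-203 cells, a difference of -0.048. Among the 500 genes closest to it in mean signal, 95% of differences lay between -0.24 and 0.27 (called the comparable-gene range, and taken for each receptor in turn), and a second AXL probe set, at 9.69 and 9.68, gave -0.011. The 2 AXL probe sets thus lay far apart in signal and within 0.04 of each other in difference. MET, the hepatocyte growth factor receptor, went from 10.80 to 10.95, a difference of 0.15 inside the comparable-gene range of -0.27 to 0.39. Of its 3 dimmer probe sets, one held the same value on both arrays, at 6.30, one gave 0.18 and one, under the filter level at 5.37 and 5.02, gave -0.35. No probe set of MET above the filter was lower in miR-203 cells, but the one at 5.37 fell just short of the filter level of 5.38.

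TYRO3 was lower in miR-203 cells by a larger amount than AXL. Its brightest probe set was at 7.70 in control cells and 7.31 in miR-203 cells, a difference of -0.38, just inside the comparable-gene range of -0.39 to 0.43. The other probe set went from 5.62 to 5.09, a difference of -0.54, outside the -0.44 to 0.46 found at its level, and its value in miR-203 cells was below the filter. Both TYRO3 probe sets were therefore lower in the miR-203 line. Of the 6281 genes with at least 2 probe sets above the filter, 47 (0.748%) had all of them at or below -0.38 and 1522 (24.2%) had all of them below 0. This count was chosen after the values were seen, and the dimmer probe set passed the filter only through its value in control cells, which favours such differences. Genes with more than 2 probe sets needed all of them to meet the bound, which lowers these shares. A larger difference in size than that of TYRO3 was found in 7.24% of all genes. The probe sets of TYRO3 are of the kind that can match several transcripts, so a related copy could add to the signal, and this was not tested.

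The Eph receptors, which signal at contacts between cells, were the steadiest pair. EPHA2, a receptor for A-type ephrins, was at 11.04 in control cells and 11.13 in miR-203 cells, a difference of 0.083 by its single probe set. EPHB4, a receptor for ephrin-B2, was at 7.82 and 7.81, a difference of -0.017, and its dimmer probe set, at 6.79 and 6.86, gave 0.063. The comparable-gene range was -0.31 to 0.40 for EPHA2 and -0.50 to 0.45 for EPHB4, so both receptors lay well inside. A larger difference in size than that of EPHB4 was found in 92.3% of all genes.

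Both fibroblast growth factor receptors were slightly lower by their brightest probe sets. FGFR1 was at 9.05 in control cells and 8.94 in miR-203 cells, a difference of -0.11, against a comparable-gene range of -0.34 to 0.44. Of its 7 probe sets, 6 were below 0 and 1 above, with a range from -0.25 to 0.060, and the lowest value came from the probe set under the filter level. FGFR4, which with its co-receptor KLB binds FGF19, was at 7.09 and 6.94, a difference of -0.16 inside the comparable-gene range of -0.54 to 0.45. Its 4 probe sets split evenly, with 2 below 0 and 2 above, from -0.20 to 0.14. Most FGFR1 probe sets were thus slightly lower, and those above the filter all lay inside the ranges of genes of their level. FGFR4 had no common direction.

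INSR stood lower in the miR-203 line, and its close relative IGF1R, with which it forms hybrid receptors, did not share a single direction. INSR was at 8.09 in control cells and 7.47 in miR-203 cells, a difference of -0.62. It was the 1 receptor outside its comparable-gene range, which ran from -0.44 to 0.44, and 195 of the 13304 genes (1.47%) had a larger difference in size. The other INSR probe sets above the filter went from 7.06 to 6.83 and from 6.31 to 6.10, differences of -0.23 and -0.21, each inside the range of genes of its own level. All 3 were thus lower, the brightest by much more than the others. Of the 2699 genes with at least 3 probe sets above the filter, 44 (1.63%) had all of them at or below -0.21, and 476 (17.6%) had all of them below 0. The bound of this count is the smallest loss of INSR itself, set after the values were seen, so the count is a description. Genes with more than 3 probe sets needed all of them to meet the bound, which lowers these shares. The remaining INSR probe sets, under the filter level, gave -0.13 and 0.10. The brightest probe set is of the kind that can match several transcripts, and without such probe sets INSR was at -0.23, so its 1.5-fold call rests on that 1 probe set.

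IGF1R, the receptor for insulin-like growth factor 1, was measured by a pair of probe sets of nearly equal signal. The brightest was at 8.22 in control cells and 8.31 in miR-203 cells, a difference of 0.085. The next went from 8.28 to 8.18, a difference of -0.096, and a dimmer one from 6.65 to 6.38, a difference of -0.27. All 3 lay inside the ranges of genes of their level. The sign of IGF1R therefore depended on the probe set, and the differences of its 5 probe sets had a median of -0.096.

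**Figure D2:**
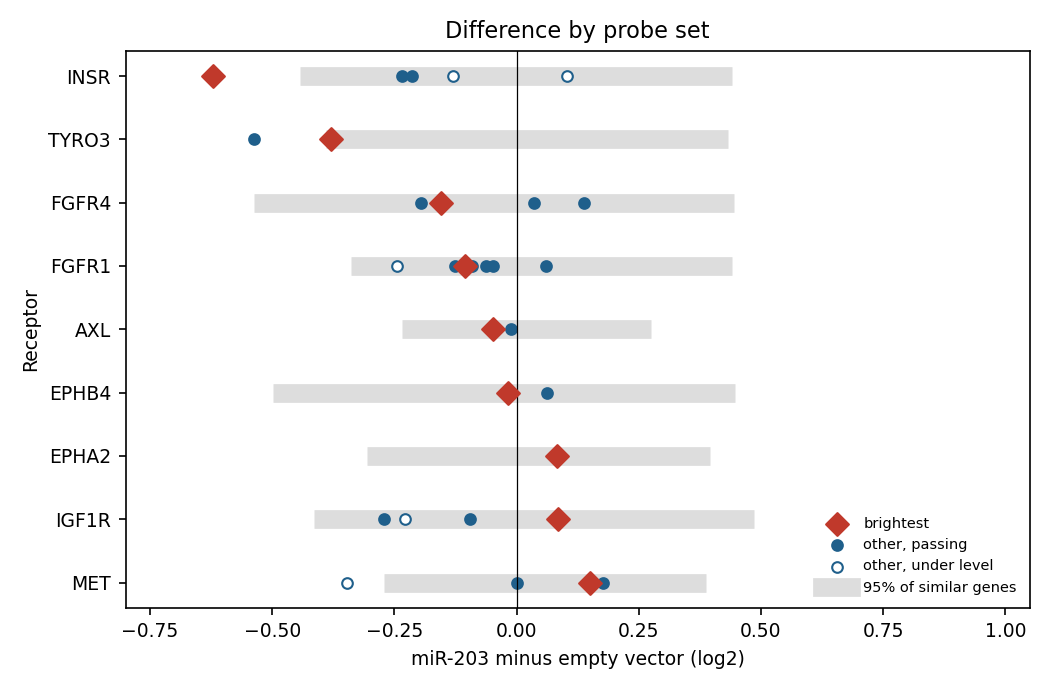
Difference of each probe set (miR-203 minus empty vector, log2, x axis) for the 9 receptors (y axis), with the brightest probe set as a red diamond, other probe sets above the filter as filled circles and those under it as open circles. Grey bars hold 95% of differences among the 500 genes closest in signal to the brightest probe set; the diamond of INSR, at -0.62, lies outside its bar and that of TYRO3, at -0.38, at the edge of its bar.

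The plot of differences by probe set shows how far the probe sets of a receptor agreed. Of the 8 receptors with several probe sets above the filter, 3 (AXL, TYRO3 and INSR) had one sign for all of them. The dimmer TYRO3 probe set is counted only through its value in control cells. A further 4 (FGFR1, FGFR4, IGF1R and EPHB4) had both signs, while MET had values at and above 0. Of the receptors' 26 probe sets above the filter, 17 were below 0 and 8 above. Over the 23979 probe sets of all genes above the filter, 46.6% were below 0. Probe sets of one gene share their target and are not replicates. The SD of the difference over the probe sets of a gene was 0.23 for INSR, 0.18 for IGF1R and 0.026 for AXL, and had a median of 0.10 over the 6281 genes with several.

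**Figure D3:**
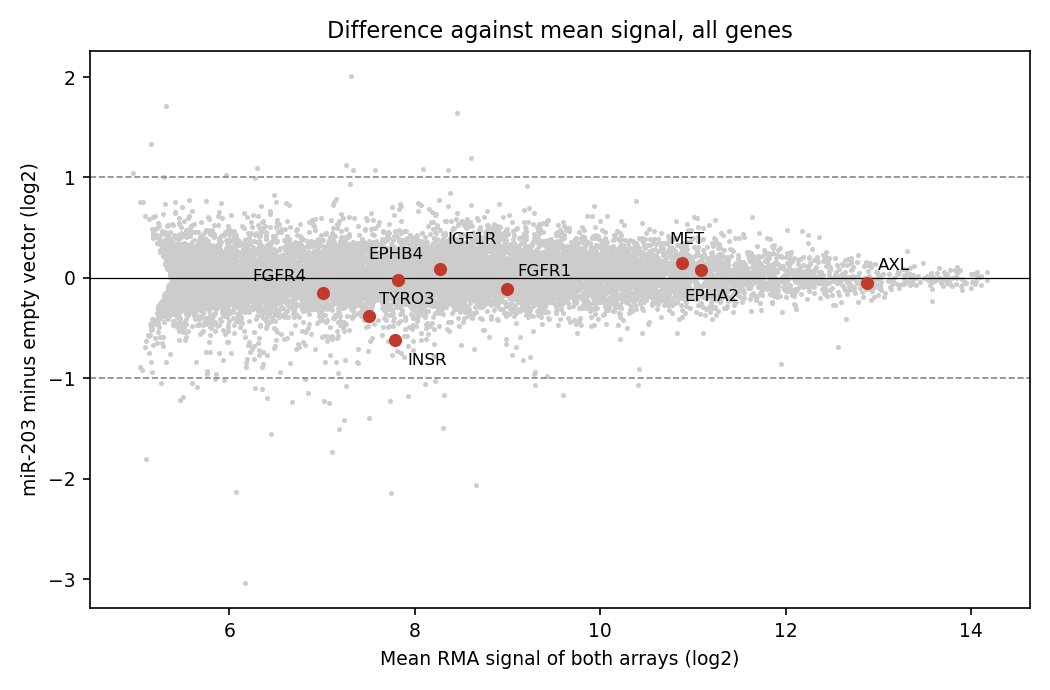
Difference (miR-203 minus empty vector, log2, y axis) against the mean signal of both arrays (log2, x axis) for the 13304 genes above the filter (grey) and the 9 receptors (red, named); dashed lines mark 2-fold. No receptor lies beyond the dashed lines, and INSR at -0.62 and TYRO3 at -0.38 lie lowest.

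The plot of difference against mean signal shows where the receptors fall among all genes. AXL, EPHA2 and MET lie among the brightest genes, where differences are narrow, and INSR, TYRO3, EPHB4 and FGFR4 lie in the lower part of the levels, where they are wider.

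The promoters of the receptors were read for motifs in windows from 250 bases before to 50 after each start (RefSeq, GRCh38.p14), and 9 of the 10 listed genes matched. These were EPHB2, which has no expression value here, and the measured receptors other than FGFR1. All 9 had at least 1 GC box, GGGCGG on either strand, in some window, against 48.3% of the 27305 genes in the same table. Genes with several windows had more places for a match. Counted by window, 10 of the 13 had a GC box (76.9%), against 45.0% of all 35116 windows. None of the 9 had TATAAA on either strand (0 of 9), against 13.99% of all genes. Over the receptors' 13 windows the GC content had a median of 74.3%, against 58.7% over all 35116 windows. Overlapping matches were counted separately. The 250 bases upstream of the start are shown for the receptors with the largest differences by the brightest probe set, 5′ to 3′ on the gene's strand with GC boxes in capitals. The INSR window lies at chr19:7294415-7294664 on the minus strand and holds 4 matches. The TYRO3 window, the one with more matches of its 2, lies at chr15:41558962-41559211 on the plus strand and holds 3.
INSR: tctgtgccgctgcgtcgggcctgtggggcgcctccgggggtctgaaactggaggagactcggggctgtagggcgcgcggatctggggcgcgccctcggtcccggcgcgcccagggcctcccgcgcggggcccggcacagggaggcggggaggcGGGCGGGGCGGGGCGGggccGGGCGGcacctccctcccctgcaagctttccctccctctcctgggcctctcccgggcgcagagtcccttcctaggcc
TYRO3: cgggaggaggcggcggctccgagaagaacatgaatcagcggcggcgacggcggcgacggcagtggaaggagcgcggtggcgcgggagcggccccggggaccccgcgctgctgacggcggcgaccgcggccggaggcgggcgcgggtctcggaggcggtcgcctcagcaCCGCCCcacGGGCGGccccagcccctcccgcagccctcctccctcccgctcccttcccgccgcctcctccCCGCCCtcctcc
These matches describe the sequences and were not tied to the expression values.

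The ligands of these receptors mostly had small differences, more of them below 0 than above. Of 28 listed ligand genes, 18 passed the filter, with a median difference of -0.11, 12 below 0 and 6 above. All genes had a median of 0.013, a first quartile of -0.11 and 45.9% below 0. The list thus lay on the low side of all genes, and this was not tested. None reached 2-fold (0 higher, 0 lower), where 0.105% of all genes were higher and 0.271% lower. At 1.5-fold 1 was lower, against 1.08% of all genes. GAS6, the ligand of AXL and TYRO3, was at 10.81 in control cells and 10.62 in miR-203 cells, and protein S (PROS1), its relative, at 8.001 and 8.25, so these ligands lay on opposite sides of 0. EFNB2, the ligand of EPHB4, was at 8.89 and 8.86. The ligands of EPHA2 were EFNA5 at 8.46 and 8.56, EFNA3 at 7.84 and 7.72, EFNA1 at 7.60 and 7.64, and EFNA4 at 7.56 and 7.28. EFNA4 thus had a difference of -0.28, and the A-type ephrins named lay on both sides of 0.

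FGF13 was the ligand-list gene past 1.5-fold, at 9.77 in control cells and 8.82 in miR-203 cells, 1.92-fold lower by its 1 probe set. FGF13 is related to the fibroblast growth factors by sequence but stays inside the cell and does not activate FGFR1 or FGFR4. HGF, the ligand of MET, chosen for that role outside the naming rule, was at 6.42 and 6.30, with 1 of its 5 probe sets above the filter.

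Of 17 other receptors of the same families 9 passed the filter, with differences by their brightest probe sets from -0.078 to 0.24 and a median of 0.046. FGFR2, named after its values were seen, had the 0.24, but its 4 probe sets above the filter ran from -1.19. Of 23 receptor tyrosine kinases of other families (the EGF and vascular receptors left out), 12 passed, with differences from -0.28 to 0.35 and a median of -0.011. By the brightest probe set no gene of either list reached 1.5-fold (0 higher, 0 lower in each), where 0.722% of all genes were higher and 1.08% lower. With shares this low, 0 calls in lists of this size are not read as a result.

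Signal proteins downstream of the receptors also had medians near 0. Adaptors and proximal signal proteins had a median of 0.036 over 21 genes, with 7 below 0, 12 above and no call at 1.5-fold (0 higher, 0 lower). The docking proteins of INSR and IGF1R, chosen after their values were seen, were also measured. IRS4 was under the filter by its probe set with the higher mean and is not among the 21 genes. Its other probe set gave -2.48 and is described under the other observations. IRS1 was at 10.31 in control cells and 10.39 in miR-203 cells, and IRS2 at 10.21 and 9.84, a difference of -0.37 with -0.33 from its second probe set. IRS2 was lower by both probe sets, and the 3 probe sets of IRS1 gave 0.075, 0.089 and -0.17. Genes of the RAS-MAPK and PI3K-AKT cascade had a median of -0.028 over 13 genes, from -0.24 to 0.36, with none past 1.5-fold (0 higher, 0 lower). Over all genes 0.722% were 1.5-fold higher and 1.08% lower, so 0 calls in either of these small lists are not read as a result.

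Negative regulators of receptor tyrosine kinases had a median of -0.11 over 19 genes, with 12 below 0 and 6 above. This too lay on the low side of all genes (median 0.013, first quartile -0.11, 45.9% below 0) and was not tested. CBLB, a ubiquitin ligase that marks activated receptors for breakdown, was at 7.30 in control cells and 6.71 in miR-203 cells, 1.503-fold lower by its 1 probe set above the filter. It was the 1 gene of this list past 1.5-fold. Extracellular and processing factors, such as proteases, their inhibitors and insulin-like growth factor binding proteins, had a median of -0.061 over 20 genes, with 12 below 0 and 8 above. One of them was past 1.5-fold, IGFBP2, which binds insulin-like growth factors, and its value of 4.79 in the miR-203 line lay under the filter level, so that it is named outside the naming rule, after its value was seen. Over the 7 lists together, 112 genes passed the filter, with a median of -0.029. At 1.5-fold 0 were higher and 3 lower, against the 0.722% and 1.08% of all genes given above, so these few calls are not read as a result about the lists.

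**Figure D4:**
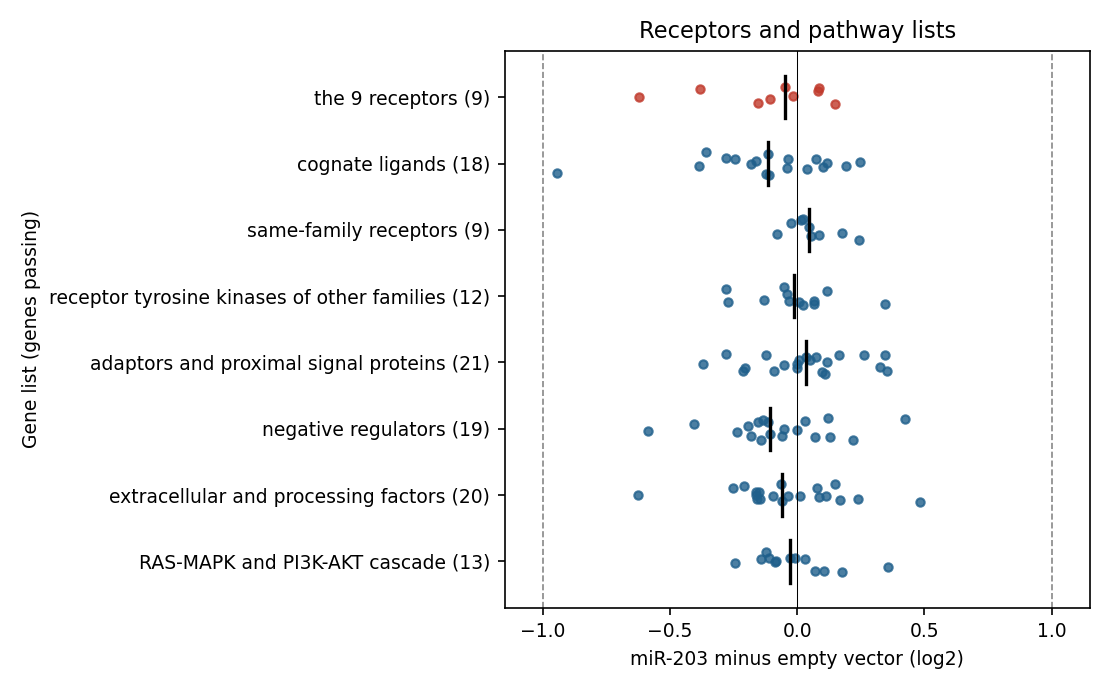
Difference (miR-203 minus empty vector, log2, x axis) of each gene that passed the filter, for the 9 receptors (red) and 7 pathway lists (blue, y axis, number of genes in brackets); black ticks are medians and dashed lines mark 2-fold. No point lies beyond 2-fold, and the lowest is FGF13 at -0.94 among the ligands.

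The plot of receptors and pathway lists places the receptors beside the genes that act with them. The medians of all 8 rows lie between -0.11 and 0.046.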

How the data were processed

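Labelled cRNA from total RNA of 1 empty-vector and 1 miR-203 line was hybridised to Affymetrix arrays. The deposited values are log2 expression per probe set, made with RMA per the submitters' processing notes; no version was found there. RMA removes background, gives both arrays the same distribution and combines probes, so a shift of all mRNAs together would be removed. The log2 scale was inferred from the values. Of the probe sets, 41091 had 1 symbol, 1801 several and 11721 were not listed in the annotation; symbols were updated through gene identifiers. Each gene took the probe set with the highest mean. RMA gives no detection call, and the number of arrays limits the precision. The 2-fold calls were tested on simulated data (Python 3.11.15, pandas 2.3.3, statsmodels 0.14.6). The planted differences were past 2-fold and larger than that of any receptor, so recovery of smaller differences was not tested. Nor were the choice among probe sets and the comparable-gene ranges. Named were the listed receptors, up to 8 of the brightest ligands and, from each pathway list, up to 4 genes past 1.5-fold with both values above the filter. Members and lists were chosen with earlier results of these data known. Alternatives were the median over probe sets, no _x_at or _s_at probe sets, centring, loess (span 0.3), the filter, raising low values to the filter level and a 1.5-fold threshold.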

Additional observations from a re-analysis of the deposited data

How the results depend on the processing

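Under the alternatives run, no receptor reached 2-fold. The median over the receptors stayed below 0 in each, from -0.049 to -0.017. At 1.5-fold, 1 receptor (INSR) and 3 pathway genes were lower. INSR was below 0 in each alternative, from -0.64 to -0.21, at -0.21 with the median over its probe sets and -0.23 without _x_at and _s_at probe sets. The filter and the raising of low values left the receptors' values unchanged and so could not test them. Centring and loess moved INSR little, to -0.62 and -0.64. The median setting takes the median level over all probe sets of a gene on each array, dim ones included. IGF1R and EPHB4 changed sign with it, to -0.27 (the value of 1 dim IGF1R probe set) and 0.023, and TYRO3, at -0.46, and IGF1R then differed more than INSR. With that median 5 of 9 receptors kept their place in the order of signal, MET moving to last, and 1 pathway gene (IRS4) was 2-fold lower, from 5.62 to 4.27, the latter under the filter level. AXL and TYRO3 had no probe set left without _x_at and _s_at. Without them the pathway median was 0.015, on the other side of 0, and without the filter on those lists, an alternative chosen after seeing the data, or with low values raised to the filter level, it was 0. No replicate could be left out. No paired analysis was possible because there was only 1 array per line. The planned search for miR-203 seed matches in the receptor mRNAs was not run, and depth does not apply to array signals. Among the receptors' brightest probe sets, the comparable-gene range was narrowest for AXL, the brightest of them.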

Other observations

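A pair of genes next to the receptors had probe sets that disagreed strongly; both were picked after their values were seen. FGFR2, a further fibroblast growth factor receptor, had 4 of its 11 probe sets above the filter level. The brightest was at 5.77 in control cells and 6.02 in miR-203 cells, and another held 5.75 and 5.73. The others went from 5.58 to 4.39 and from 5.39 to 4.49, differences of -1.19 and -0.91, with both miR-203 values under the filter level. IRS4, a docking protein of the insulin receptor family, had 2 probe sets. One went from 6.16 to 3.68, a difference of -2.48, with the latter value under the filter level. The other, which has the higher mean, was at 5.09 and 4.86, under that level on both arrays. With 1 array per line these values have no replicate check.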
